A study of Homo sapiens with 36 samples.

Results

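The cytosolic heat shock genes examined here are 10 human genes, found by their symbols in the deposited gene table, out of 60662 gene IDs in that table. They are HSPA6, HSPA1A, HSPA1B, HSPA8, HSP90AA1, HSPH1, DNAJB1, HSPB1, BAG3 and HSF1, and each symbol matched 1 ID. Transcript levels were measured by poly(A) RNA-seq in A549, a lung adenocarcinoma line of epithelial origin, in 36 libraries that form 12 groups of 3 replicates. The groups combine an siRNA against ATF4 (siATF4), an siRNA against ATF6 (siATF6) or a non-targeting siRNA (siControl), each at 100 nM, with medium holding 0 mM or 25 mM glucose, for 6 h or 16 h. All groups, the controls included, were transfected with siRNA, replated 24 h later and treated after another 24 h in medium with 10% dialysed serum and 2 mM glutamine, so no group is an untransfected culture. The design asks how these genes respond to loss of glucose and whether that response differs when ATF4 or ATF6, both transcription factors of the unfolded protein response, is knocked down. All cultures come from 1 cell line. The labels call the replicates biological replicates, and the sources used here do not say whether they were cultured on separate days.

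Heat shock proteins keep other proteins folded. In the cytosol and nucleus, HSP70 proteins bind exposed stretches of unfolded chains and release them in a cycle that J-domain proteins start and nucleotide exchange factors end, and HSP90 completes the folding of many kinases and receptors. Cells keep a constitutive HSP70, HSPA8, and add inducible ones when the transcription factor HSF1 is released from chaperones, forms trimers and binds heat shock elements, inverted repeats of the letters GAA, before its target genes. Low glucose is better known for acting on the endoplasmic reticulum, where unfinished glycosylation leaves proteins unfolded and raises that compartment's own HSP70, HSPA5, through ATF6 and its relatives.

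Start-site windows show which of these genes hold the letters of a heat shock element. RefSeq promoter windows (GRCh38.p14, 250 bases before to 50 bases after each start) were found for 9 of the 10 genes, and HSF1 is named only. Both strands were searched for the pair of units GAANNTTC or TTCNNGAA, patterns that are their own reverse complements and that overlap each other in a run of 3 units. At least 1 pair stood in the windows of 7 of the 9 genes, against 16.2% of the 27305 genes with a window, and was absent from the windows of BAG3 and HSPH1. A run of 3 units, that is 1 of these pairs and, after 2 more free bases, 1 more unit in alternating order, stood in the windows of HSPA6, HSPA8 and HSP90AA1, against 0.608% of genes. The letters TGATGNAA, taken for an ATF4 element, were in the windows of 0 of the 9 genes, against 4.46% of all genes, and the endoplasmic reticulum stress element (ERSE) was in 0 of the 9, against 0.0916%. A match is only a match of letters in this window and is no measure of binding.

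The 200 bases before the start are printed for HSPA6, HSPA1A, HSPA1B and DNAJB1, whose levels tracked each other across the deprived cultures, for HSPA8, which holds a run of 3 units and fell on deprivation, and for BAG3, whose level tracked the first 4 and which holds no pair. Each runs 5′ to 3′ on the gene's own strand, and capitals mark the pairs or runs of heat shock units.
HSPA6 (chr1:161524340-161524539, plus strand): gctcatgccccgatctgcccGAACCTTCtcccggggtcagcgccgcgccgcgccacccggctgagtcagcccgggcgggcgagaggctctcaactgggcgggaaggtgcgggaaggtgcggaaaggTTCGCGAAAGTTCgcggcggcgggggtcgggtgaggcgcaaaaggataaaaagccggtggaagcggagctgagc
HSPA1A (chr6:31815343-31815542, plus strand): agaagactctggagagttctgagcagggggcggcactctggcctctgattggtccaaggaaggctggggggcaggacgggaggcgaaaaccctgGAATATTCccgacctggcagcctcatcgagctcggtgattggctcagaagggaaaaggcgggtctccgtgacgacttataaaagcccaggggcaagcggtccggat
HSPA1B (chr6:31827538-31827737, plus strand): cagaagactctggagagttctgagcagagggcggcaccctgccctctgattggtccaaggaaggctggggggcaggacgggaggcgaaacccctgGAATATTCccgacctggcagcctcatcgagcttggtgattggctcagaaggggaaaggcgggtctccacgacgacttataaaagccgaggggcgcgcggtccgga
DNAJB1 (chr19:14518398-14518597, minus strand): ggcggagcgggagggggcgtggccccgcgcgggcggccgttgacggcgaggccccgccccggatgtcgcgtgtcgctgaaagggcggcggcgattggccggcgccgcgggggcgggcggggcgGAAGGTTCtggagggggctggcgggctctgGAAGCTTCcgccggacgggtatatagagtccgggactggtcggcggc
HSPA8 (chr11:123062137-123062336, minus strand): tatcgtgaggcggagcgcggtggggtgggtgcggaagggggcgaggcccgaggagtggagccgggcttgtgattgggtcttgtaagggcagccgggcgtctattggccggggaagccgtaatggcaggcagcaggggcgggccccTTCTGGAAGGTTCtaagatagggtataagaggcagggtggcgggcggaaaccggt
BAG3 (chr10:119651180-119651379, plus strand): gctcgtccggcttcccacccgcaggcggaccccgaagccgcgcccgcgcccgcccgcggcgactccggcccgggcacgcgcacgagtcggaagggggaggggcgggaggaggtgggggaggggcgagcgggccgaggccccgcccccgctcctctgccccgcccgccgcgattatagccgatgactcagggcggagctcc

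In these windows the run of 3 units in HSPA6 began 74 bases before the start and HSPA8 had runs at 230 bases before it, outside the bases shown, and at 55, while HSPA1A and HSPA1B had a single pair, at 106 and 105 bases before it. DNAJB1 has several annotated starts. The window shown is the one with 2 pairs, at 77 and 47 bases before its start.

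Library depth ran from 39.4 to 78.7 M expected counts (M, 1e6) in 35 of the libraries. The remaining one, siATF4 in 0 mM at 6 h replicate 3, held 2.87 M. It correlated with its nearest library at -0.0995 only, where each of the others had a partner at 0.943 or above, and it was left out of all tests. A list of epithelial and A549 genes summed to 5285 to 14862 CPM (counts scaled to a library total of 1e6), while an immune list summed to 20.2 to 106 CPM. In the first list KRT8 took 1332 to 5474 CPM, KRT18 1390 to 3398, AKR1B10 882 to 3540 and NQO1 1039 to 1885. AKR1C1 took 209 to 572 CPM and KRT19 94.2 to 277. The epithelial genes CDH1 and EPCAM were low, at 7.26 to 35.6 and 1.77 to 7.83 CPM. Of the immune list CD68 took 16.1 to 105 CPM and CD14 0.530 to 8.56 CPM. CD3E and MS4A1, which mark T and B cells, were at 0 in all 35, and PTPRC and LYZ reached at most 0.0423 and 0.137 CPM. The siRNAs lowered their targets in 0 mM at 16 h: ATF4 averaged 164 CPM with siATF4, against 449 CPM with siControl (log2 difference -1.29, adjusted p = 0.000186), and ATF6 differed by -2.58 with siATF6 (adjusted p = 4.9e-06). ATF6 was also lower with siATF4 in 0 mM at 16 h. It averaged 59.5 CPM (43.7 to 70.0), against 88.9 CPM (87.1 to 92.0) with siControl. In 25 mM at 16 h the ATF4 level with siATF4 was 132 CPM, against 166 CPM with siControl (log2 difference -0.28, adjusted p = 0.76). The siATF4 label is thus not checked there. ATF6 in 25 mM at 16 h averaged 9.08 CPM with siATF6, against 48.0 CPM with siControl. At 6 h the libraries labelled replicate 2 of siControl and siATF6 run against their glucose labels: HSPA5 stood at 720 and 731 CPM in those labelled 0 mM, against 3434 and 2028 CPM in those labelled 25 mM, and HSPA6 results at 6 h are therefore given with and without replicate 2.

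HSPA6 encodes a strictly inducible cytosolic HSP70 that has no counterpart in mice. Its gene lies on chromosome 1 (GRCh38, 161524540 to 161526894, plus strand, 1 exon), and its near-copy HSPA7 took at most 2.02% of the summed counts of both. Of the 10 genes it had the largest fold change on deprivation with each siRNA at 16 h. In 0 mM at 16 h it stood at 248, 30.5 and 39.5 CPM with siATF4 (replicates 1, 2 and 3), at 1005, 160 and 144 CPM with siATF6, and at 999.5, 104 and 247 CPM with siControl. In 25 mM its 9 libraries lay between 0.910 and 1.86 CPM. Every deprived library was therefore above every library with glucose, and within each deprived group replicate 1 was far above the other two.

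HSPA6 in 25 mM held 1.27 ± 0.18 CPM with siATF4, 1.59 ± 0.23 CPM with siATF6 and 1.07 ± 0.25 CPM with siControl (SD, n = 3 each), so the 3 fed groups sat close together. Set against the same-numbered fed culture, HSPA6 in 0 mM was 169, 27.4 and 31.9 times as high with siATF4, 676, 111 and 77.4 times with siATF6, and 1098, 76.8 and 260 times with siControl. The log2 fold change for 0 mM over 25 mM was 6.53 (SE 1.1, adjusted p = 0.00052) with siATF4, 8.20 (SE 1.2, adjusted p = 7.0e-05) with siATF6 and 8.83 (SE 1.2, adjusted p = 6.3e-05) with siControl. These values come from edgeR's quasi-likelihood test, adjusted over all 18013 genes by Benjamini-Hochberg, as do all adjusted p-values at 16 h. The call held with each library left out in turn, over which the estimate lay at 5.05 to 6.97 with siATF4, 6.71 to 8.61 with siATF6 and 7.44 to 9.30 with siControl. In bulk RNA, fewer cells that make a transcript and less of it per cell cannot be told apart.

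**Figure D1:**
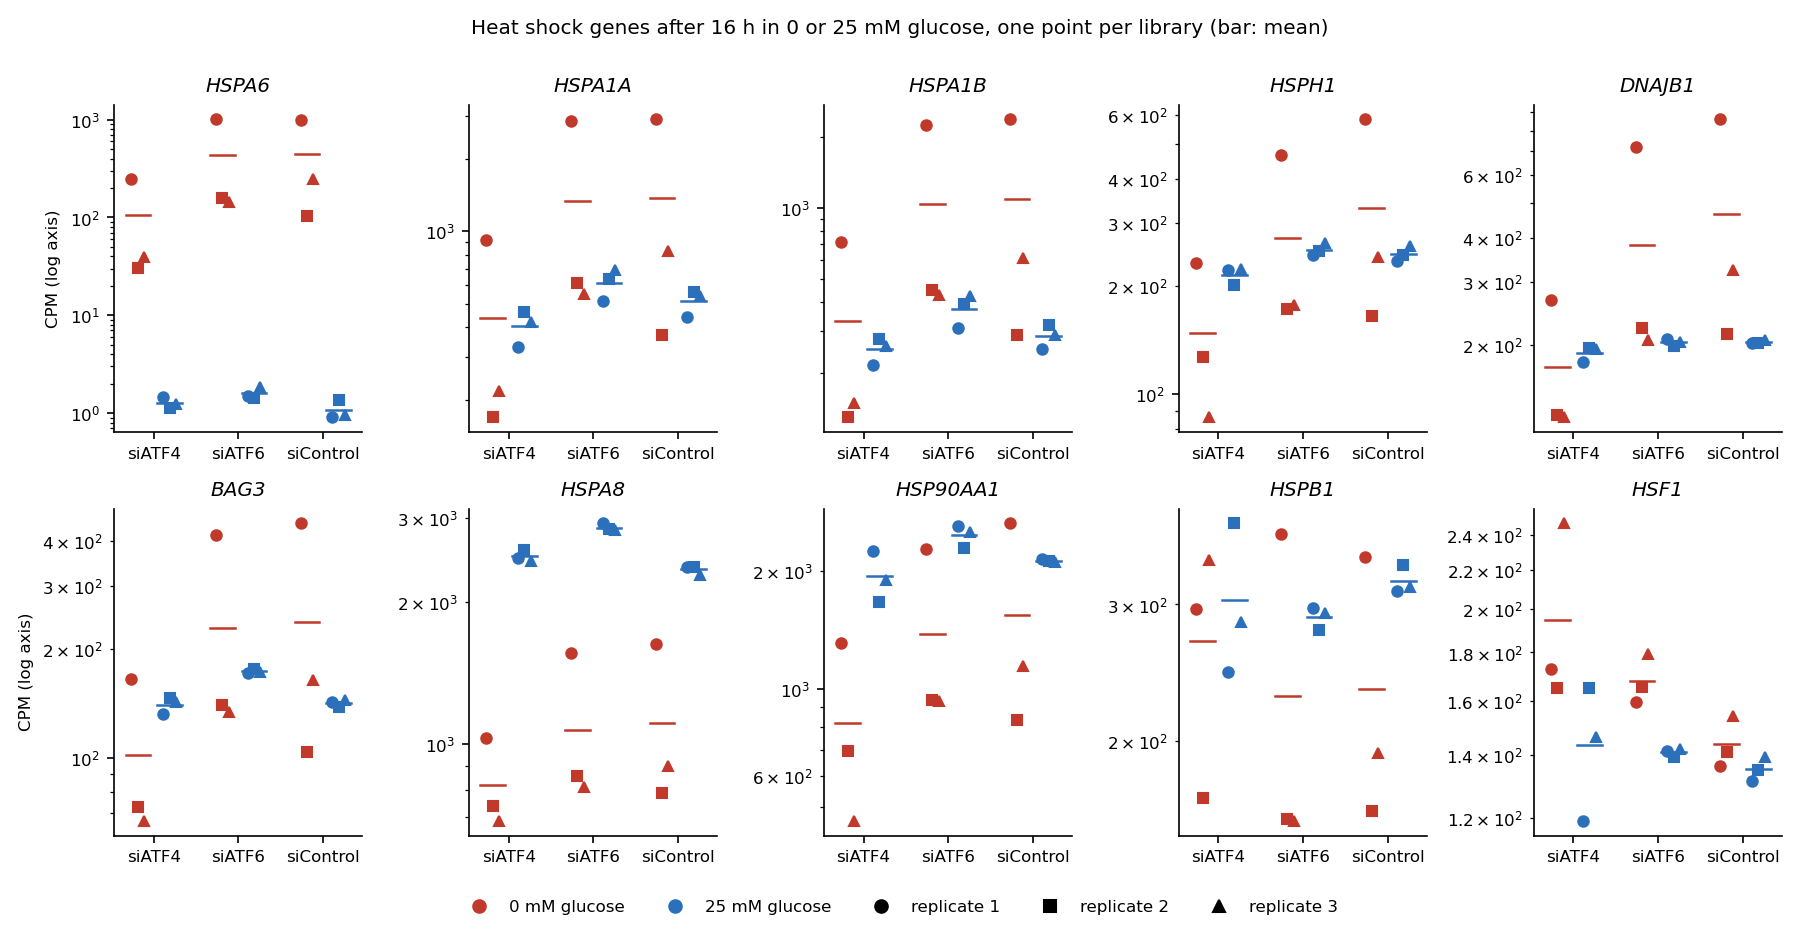
Level of each of the 10 genes in the 18 libraries of 16 h, in CPM on a log axis, by siRNA and glucose. Each marker is 1 library with its shape giving the replicate number, and bars are group means. HSPA6 is at 30.5 to 1005 CPM in all 9 deprived libraries and at most at 1.86 CPM in the fed ones, and replicate 1 is the highest deprived library for HSPA6, HSPA1A, HSPA1B, DNAJB1, HSPH1 and BAG3.

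Levels per transcript length put that rise in proportion. In TPM, which divides counts by effective transcript length before scaling each library to the same total, HSPA6 reached 141 in replicate 1 and at most 17.2 in the other two replicates with siATF4, 588, 85.6 and 77.6 with siATF6 and 592, 59.6 and 145 with siControl in 0 mM, against 0.552 to 1.07 TPM over the 9 fed libraries. HSPA8, the constitutive HSP70, stood at 317 to 1034 TPM in 0 mM, against 1420 to 1837 TPM in 25 mM. In replicate 1 of siControl, HSPA6 was thus at 592 TPM beside 1034 TPM of HSPA8, and in the same-numbered fed culture at 0.570 TPM beside 1594 TPM.

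HSPA1A and HSPA1B encode nearly the same inducible HSP70 protein from neighbouring genes on chromosome 6, 9791 bases apart. Reads can be split between the copies only in part, so their values are uncertain singly; HSPA1A held 50.1 to 65.2% of the pair's counts, and 36.5% of the exon bases of HSPA1B are shared with the annotated gene AL671762.1. Summed, the pair stood at 1634, 299.6 and 367 CPM with siATF4, at 5121, 1059 and 975 CPM with siATF6, and at 5278, 662 and 1439 CPM with siControl in 0 mM. HSPA1A alone stood at 920, 170 and 218 CPM with siATF4, at 2868, 608 and 549.3 CPM with siATF6 and at 2910, 372 and 825 CPM with siControl in 0 mM. The same gene in 25 mM stood at 332, 462 and 421 CPM with siATF4, at 512, 635 and 689 CPM with siATF6 and at 443, 562 and 541 CPM with siControl.

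For HSPA1A the groups overlapped: with siATF4 only replicate 1 of the deprived cultures was above the fed ones, and with siControl replicate 2 of the deprived cultures was below all 3 fed ones. The log2 fold change for 0 mM over 25 mM was 0.27 with siATF4, 1.24 with siATF6 (adjusted p = 0.21) and 1.53 with siControl (SE 0.73, adjusted p = 0.13). HSPA1B gave 0.56, 1.59 (adjusted p = 0.12) and 2.04 (SE 0.76, adjusted p = 0.056) in the same order of siRNAs, and neither gene passed the test in any of the 3 deprivation comparisons. The siControl value of HSPA1B did pass with DESeq2 (2.04, adjusted p = 0.047), in a fit of 29 libraries of both times (adjusted p = 0.046) and without replicate 2 of the deprived siControl cultures (2.49, adjusted p = 0.025). When the replicate 1 libraries were left out, the HSPA1A value was -0.94 with siATF4, -0.05 with siATF6 and 0.21 with siControl, and that of HSPA1B with siControl was 0.66. Leaving out replicate 1 of the deprived siControl cultures alone gave 0.30 for HSPA1A and 0.74 for HSPA1B. HSPA6 and this pair thus differed in their fed level: HSPA1A was already at 203 to 389 TPM with glucose, where HSPA6 was near 1 TPM.

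DNAJB1 encodes the J-domain protein that delivers clients to HSP70, HSPH1 an HSP110 that acts as its nucleotide exchange factor, and BAG3 a co-chaperone that links HSP70 to autophagy. DNAJB1 stood at 267, 128 and 125 CPM with siATF4, at 719, 223 and 207 CPM with siATF6 and at 859, 215 and 324 CPM with siControl in 0 mM. In 25 mM its 9 libraries lay within 180 to 208 CPM. It rose with siControl (log2 fold change 1.31, SE 0.48, adjusted p = 0.049), and its values with siATF6 and siATF4 were 1.03 (adjusted p = 0.11) and 0.05. The siControl call rests on single libraries: it was lost without replicate 1 of the deprived cultures, where the value was 0.50, and without any 1 of the 3 fed siControl libraries. Without the replicate 1 libraries of all groups it was 0.50 with an adjusted p of 0.063, and other settings gave an adjusted p of 0.052 to 0.28 where they lost the call.

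HSPH1 stood at 233, 127 and 86.4 CPM with siATF4, at 466, 173 and 177 CPM with siATF6 and at 585, 165 and 242 CPM with siControl in 0 mM, while its fed libraries lay at 202 to 265 CPM. BAG3 stood at 165, 72.7 and 66.5 CPM with siATF4, at 416, 140 and 134 CPM with siATF6 and at 449, 104 and 164 CPM with siControl in 0 mM, while its fed libraries lay at 132 to 176 CPM. In both genes replicate 1 with siATF6 and siControl was above all fed libraries, and replicates 2 and 3 of siATF4 were below all of them. Neither passed the test in any deprivation comparison. The HSPH1 log2 fold changes were -0.36 with siATF4, 0.22 with siATF6 and 0.54 with siControl, and those of BAG3 were -0.28, 0.52 and 0.87 in the same order. HSPH1 with siControl was -0.21 without the replicate 1 libraries, and BAG3 with siControl was 0.0095 without replicate 1 of the deprived siControl cultures. With siATF4 both genes were called lower when the replicate 1 libraries were left out, HSPH1 at -0.78 and BAG3 at -0.82 (adjusted p = 0.013 each).

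HSPA8, the abundant constitutive HSP70 of the cytosol, fell on deprivation with each siRNA. It stood at 1031, 738 and 687 CPM with siATF4, at 1554, 854 and 810 CPM with siATF6 and at 1628, 788 and 899 CPM with siControl in 0 mM, and all of these were below the lowest fed library, at 2280 CPM. HSPA8 fell by 1.41 on the log2 scale with siATF4 (SE 0.26, adjusted p = 0.00081), by 1.30 with siATF6 (SE 0.26, adjusted p = 0.0010) and by 0.97 with siControl (SE 0.25, adjusted p = 0.0092). Its replicate 1 was again the highest deprived library with each siRNA. The siControl call was lost without replicate 3 of the deprived siControl group (adjusted p = 0.054), and in the 16 h libraries without replicate 1 the siControl value was -1.36.

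HSP90AA1, the inducible isoform of cytosolic HSP90, stood at 1310, 693 and 459 CPM with siATF4, at 2282, 935 and 935 CPM with siATF6 and at 2654, 831 and 1146 CPM with siControl in 0 mM. Its fed libraries lay at 1670 to 2614 CPM, so that replicate 1 with siATF6 lay among them, replicate 1 with siControl just above them, and the other deprived libraries below them. The log2 fold changes were -1.06 with siATF4 (SE 0.41, adjusted p = 0.061), -0.72 with siATF6 (adjusted p = 0.19) and -0.35 with siControl (adjusted p = 0.56). HSP90AA1 was called lower in all 3 without the replicate 1 libraries, by 1.41, 1.22 and 1.00 on the log2 scale (adjusted p = 0.00080, 0.00074 and 0.0028). With siATF4 it was also called lower by DESeq2 (-1.04, adjusted p = 0.031), in the fit of 29 libraries (adjusted p = 0.033) and without replicate 1 of the deprived siATF4 cultures (-1.51, adjusted p = 0.018). A fit that blocks on the replicate number gave -1.16 with siATF4 (adjusted p = 0.0050), whose numbers were not taken to pair the cultures. With siATF6 that fit gave -0.86 (adjusted p = 0.022), and 3 members were called among 42.3% of genes.

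HSPB1 encodes a small heat shock protein that holds unfolded chains without ATP, and HSF1 the factor that drives the heat shock response. HSPB1 stood at 296, 169 and 342 CPM with siATF4, at 370, 159 and 158 CPM with siATF6 and at 345, 163 and 193 CPM with siControl in 0 mM, against 246 to 382 CPM over the fed libraries, and passed the test in none of the 3 comparisons. HSF1 stood at 173, 165 and 247 CPM with siATF4, at 160, 165 and 179 CPM with siATF6 and at 136, 141 and 154 CPM with siControl in 0 mM, against 119 to 165 CPM in 25 mM. It rose with siATF4 (log2 fold change 0.68, SE 0.18, adjusted p = 0.010), and its values with siATF6 and siControl were 0.38 (adjusted p = 0.12) and 0.20 (adjusted p = 0.45). The siATF4 call was lost without replicate 1 of the fed siATF4 cultures (adjusted p = 0.056), and without replicate 3 of the deprived ones the value was 0.36. That library, at 247 CPM of HSF1, stands apart across all genes: its mean chi-square per gene was 259 and 284 against its partners, where other replicate pairs reached at most 176, its TMM factor was 0.796 and it held counts for 21247 genes. Fits of only the libraries compared called HSF1 higher with siATF6 (0.41, adjusted p = 0.0025) and siControl (0.20, adjusted p = 0.045), and with the replicate block the adjusted p was 0.0033 and 0.015.

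At an adjusted p under 0.05, deprivation at 16 h thus called HSPA6 and HSF1 higher and HSPA8 lower with siATF4, HSPA6 higher and HSPA8 lower with siATF6, and HSPA6 and DNAJB1 higher and HSPA8 lower with siControl. Of all genes tested, 14.9% were called higher and 14.2% lower with siATF4, 15.6% and 17.9% with siATF6, and 14.6% and 14.5% with siControl, so the share of members called was close to that of all genes. The members' median log2 fold change was 0.05 with siATF4, 0.45 with siATF6 and 0.70 with siControl, beside -0.01, -0.03 and 0.01 over all genes. When the replicate 1 libraries were left out 5, 3 and 3 members were called, among 20.1%, 27.8% and 23.0% of genes. The 3 comparisons use separate libraries.

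**Figure D2:**
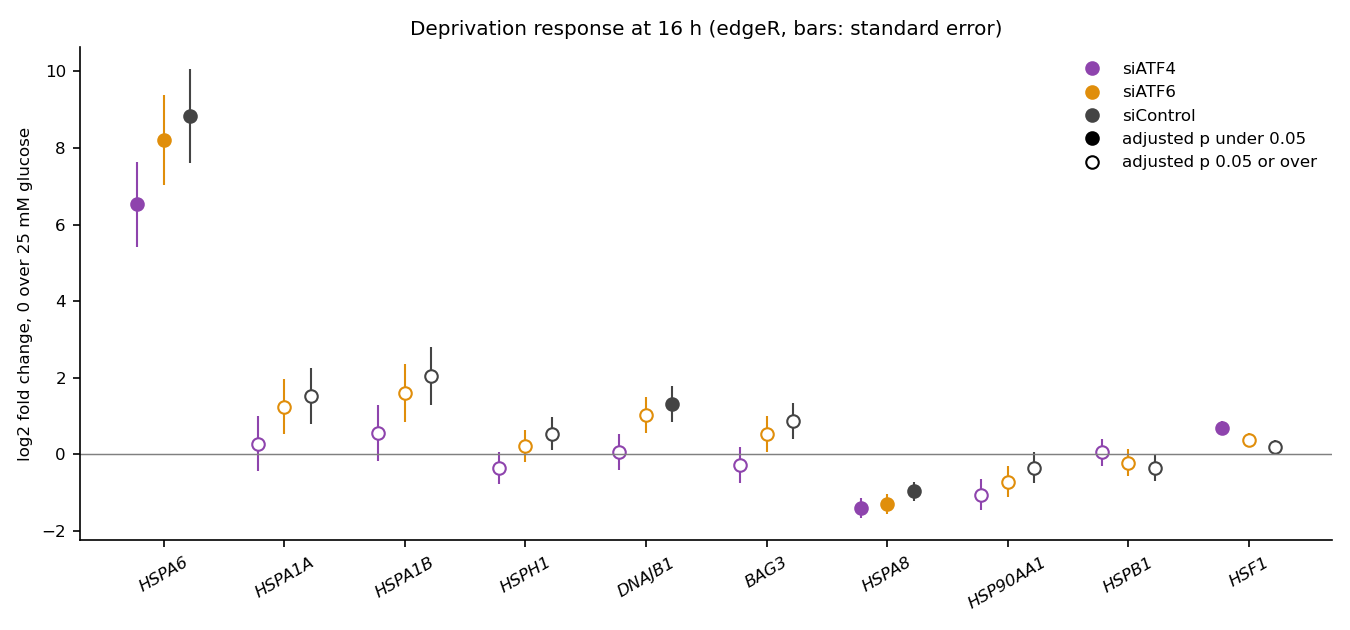
Log2 fold change of each of the 10 genes for 0 mM over 25 mM glucose at 16 h, with its standard error as the bar, for siATF4, siATF6 and siControl. Filled points have an adjusted p under 0.05. HSPA6 stands at 6.53 to 8.83 with all 3 siRNAs and HSPA8 at -1.41 to -0.97, while the estimates of HSPA1A, HSPA1B, DNAJB1, HSPH1 and BAG3 are lowest with siATF4.

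Replicate 1 carried the highest level of most members in the deprived groups. It was the highest of the 3 libraries for 8 of the 10 members with siATF4, 9 with siATF6 and 9 with siControl, while among all genes of at least 5 CPM it was the highest for 36.2%, 49.0% and 36.6%. In 25 mM it was the highest for 2, 4 and 2 of the 10 members, beside 47.9%, 46.0% and 49.6% of genes. The 10 genes together took 0.536 to 1.29% of all counts in the deprived replicate 1 libraries and 0.242 to 0.481% in deprived replicates 2 and 3, against 0.601 to 0.755% in the fed libraries. Highest over lowest replicate in 0 mM was 8.12, 6.99 and 9.61 for HSPA6 with siATF4, siATF6 and siControl, and 5.42, 5.22 and 7.83 for HSPA1A. By contrast HSPA5, the endoplasmic reticulum HSP70, stood at 10382, 10268 and 9877 CPM in the 3 deprived siControl cultures. Replicate 1 also had less mitochondrial RNA, 1.79 to 3.08% of counts in 0 mM and 2.19 to 3.13% in 25 mM, against 3.37 to 4.71% in 0 mM and 3.62 to 5.31% in 25 mM for replicates 2 and 3, and its part in the result was not tested.

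Levels of HSPA6, HSPA1A, HSPA1B, DNAJB1, HSPH1, BAG3, HSPA8 and HSP90AA1 were lower in every deprived siATF4 culture than in its siControl counterpart. The test over all genes passed none of them. How many of all genes were lower in all 3 pairs was not computed. With siATF4, HSPA6 was at 24.8, 29.4 and 16.0% of the same-numbered siControl culture in 0 mM at 16 h, HSPA1A at 31.6, 45.6 and 26.4%, and DNAJB1 at 31.1, 59.2 and 38.7%. All 3 pairs thus showed the lower level with siATF4. In siATF6 cultures HSPA6 was at 100.5, 153.7 and 58.1% of siControl and HSPA1A at 98.5, 163.6 and 66.6%, on both sides of equality.

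In the test over all genes the siATF4 difference from siControl in 0 mM was -1.998 for HSPA6 on the log2 scale (SE 0.87, adjusted p = 0.13), -1.55 for HSPA1A (SE 0.73, adjusted p = 0.16), -1.30 for DNAJB1 (SE 0.48, adjusted p = 0.079), -1.12 for BAG3 (SE 0.48, adjusted p = 0.13) and -1.04 for HSPH1 (SE 0.42, adjusted p = 0.11). None of these passed it. The 1 member called was HSF1, higher by 0.62 with siATF4 (SE 0.18, adjusted p = 0.035), among 12.4% of genes called in either direction. The replicate numbers were taken to pair these cultures, and with them as a block 4 members were called, among 22.6% of genes. HSPA6 was then lower by 2.01 (adjusted p = 0.021), DNAJB1 by 1.199 (adjusted p = 0.034) and HSPH1 by 0.97 (adjusted p = 0.047), and HSF1 stayed higher. The same block in a fit of only the 6 libraries compared called 0 members and 0 of 16669 genes.

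The count of members called between siATF4 and siControl in 0 mM depended on replicate 1. In the other 12 libraries 6 members were called, all lower with siATF4, among 7.91% of genes: HSPA6, HSPA1A, HSPA1B, HSPH1, DNAJB1 and BAG3. The HSPA6 difference was -2.10 there (adjusted p = 0.016). Leaving out replicate 1 of siControl alone moved it to -0.61, with 0 members called among 1093 of 18350 genes. Leaving out replicate 1 of siATF4 alone moved it to -3.48 (adjusted p = 0.024), with 7 members called among 3439 of 18391 genes. Without replicate 3 of siControl, again 0 members were called, among 543 of 18423 genes. Replicate 3 of deprived siATF4 stood apart from its group in HSF1, at 247 CPM beside 173 and 165 CPM, and, as given above, across all genes, and the HSF1 call was lost without it (log2 difference 0.30) and without any 1 of the 3 siControl libraries.

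For siATF6 against siControl in 0 mM at 16 h the members' log2 differences ran from -0.24 for DNAJB1 to 0.29 for HSF1 (adjusted p = 0.43), and HSPA6 was at -0.01 (SE 0.84). With edgeR's test 0 of the 10 were called, among 4.02% of genes. This comparison and that of siATF4 share the siControl libraries. In 25 mM 0 members were called with siATF4 or siATF6, among 0.0444% and 0.749% of genes, and HSPA6 differed by 0.30 and 0.62. ATF4 itself was not called lower with siATF4 there. The replicate numbers were also taken to pair the siATF6 and siControl cultures in 25 mM. A fit of only these 6 libraries called 2 members higher with siATF6, HSPA8 and BAG3, among 942 of 16741 genes called, and with the block it called 5 higher, HSPA1A, HSPA1B, HSPA8, HSP90AA1 and BAG3, among 4409 genes. All 5 were higher with siATF6 in 3 of 3 pairs, which adds no support, since the fit that picked them used the same pairs. The block in the fit of all 18 libraries of 16 h called 0 members here. The difference between siRNAs in the deprivation response itself was -2.30 for HSPA6 with siATF4 (SE 1.4, adjusted p = 0.60), -1.26 for DNAJB1 and -1.15 for BAG3, and 0 members passed among 0.172% of genes. With siATF6 it was -0.63 for HSPA6 (adjusted p = 1.0), and 0 of all genes passed, beside 412 genes at an unadjusted p under 0.05. A smaller HSPA6 response with siATF4 than with siControl was thus not shown by the test of that difference.

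**Figure D3:**
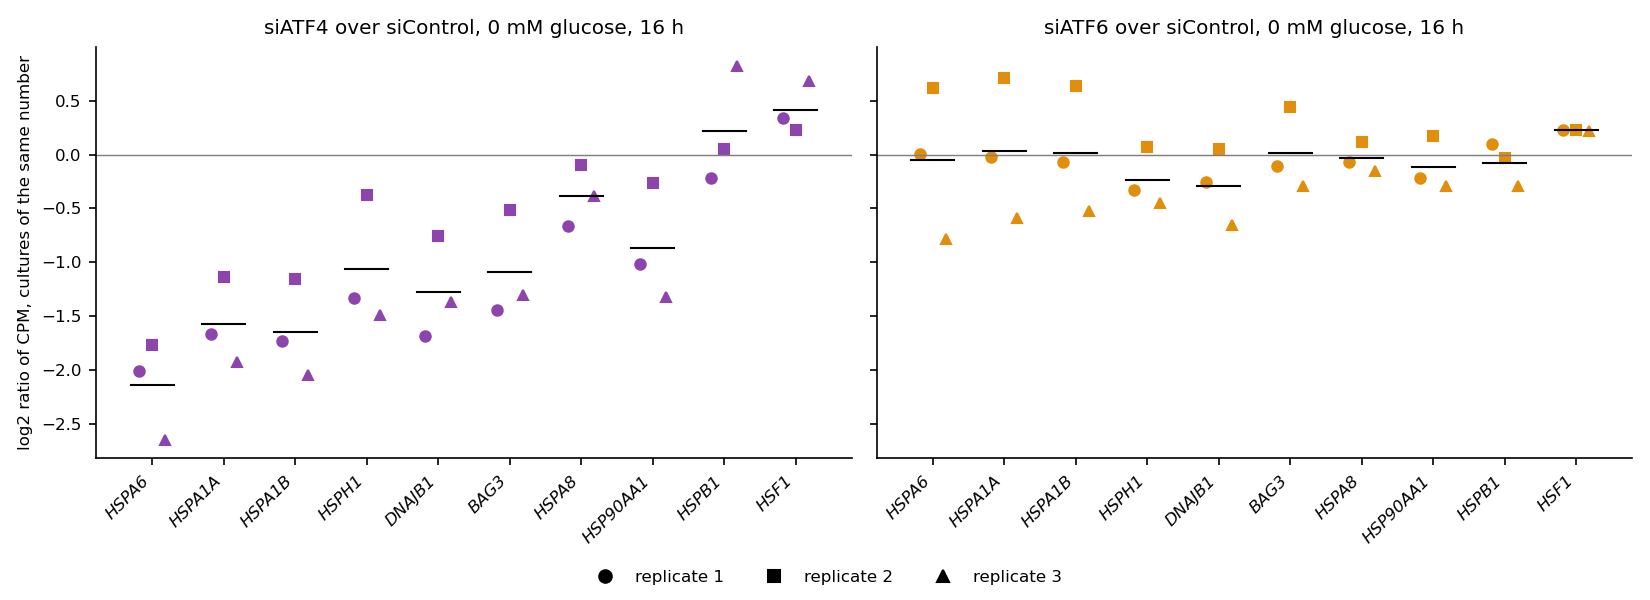
Log2 ratio of the level in siATF4 or siATF6 cultures to that in the same-numbered siControl culture, in 0 mM at 16 h, for each of the 10 genes and 3 replicates. A value of 0 means equal levels. The siATF4 points of HSPA6, HSPA1A, HSPA1B, DNAJB1, HSPH1, BAG3, HSPA8 and HSP90AA1 are all below 0. The siATF6 points of HSPA6 lie on both sides of it.

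At 6 h HSPA6 was at 14.7 and 0.401 CPM with siATF4, at 52.9, 0.609 and 18.4 CPM with siATF6 and at 61.0, 0.854 and 14.1 CPM with siControl in the libraries labelled 0 mM. Those labelled 25 mM held 0.886, 0.579 and 0.746 CPM with siATF4, 0.647, 2.61 and 0.645 CPM with siATF6 and 1.01, 1.78 and 0.895 CPM with siControl. Replicate 1 with each siRNA, and replicate 3 with siATF6 and siControl, were thus well above their fed counterparts already at 6 h, and lower than the same-numbered deprived cultures of 16 h. In replicate 2 HSPA6 was at most 2.61 CPM whatever the glucose label.

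HSPA1A in replicate 2 at 6 h stood at 38.7 CPM with siATF4 in 0 mM, against 304 CPM in 25 mM. With siATF6 and siControl the libraries labelled 0 mM held 287 and 372 CPM, against 42.5 and 51.5 CPM in those labelled 25 mM. In each pair the library with the lower HSPA1A was the one with the higher HSPA5, which stood at 1792 CPM with siATF4 in 0 mM, against 560 CPM in 25 mM. HSPA8 behaved like HSPA1A there, at 1654 and 1700 CPM in the siATF6 and siControl libraries labelled 0 mM, against 617 and 592 CPM in those labelled 25 mM. HSPA1A in replicates 1 and 3 of siControl was at 549.1 and 151 CPM in 0 mM, against 230 and 220.5 CPM in 25 mM. In replicate 1 of siControl it was thus higher without glucose. Replicate 1 of siATF6 in 0 mM held 459 CPM, above its fed group, at most 215 CPM. With siATF4 replicate 1 in 0 mM held 159 CPM, below its fed group, at 181 to 304 CPM. In replicates 1 and 3 of siControl HSPA8 was at 801 and 532 CPM in 0 mM, against 1517 and 1213 CPM in 25 mM.

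With all libraries but the failed one, no member passed the test for deprivation at 6 h. HSPA6 had log2 fold changes of 3.43 with siATF4, 4.22 with siATF6 and 4.41 with siControl (SE 1.6, adjusted p = 1.0). By edgeR 0 of all genes were called in any of these comparisons, beside 695, 148 and 181 genes at an unadjusted p under 0.05. Without replicate 2 HSPA6 was called with siATF6 (5.84, adjusted p = 0.040) and siControl (5.36, adjusted p = 0.032), among 1.82% and 3.92% of genes. With siATF4 this left only replicate 1 of the deprived cultures, and the value was 4.24. The siControl response of HSPA6 at 16 h was larger than at 6 h by 4.42 on the log2 scale (SE 1.9, adjusted p = 0.17), with 0 members called for that difference among 8.62% of genes, and by 3.48 (adjusted p = 0.28) without replicate 2.

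Between siRNAs at 6 h 0 members were called. For siATF4 against siControl HSPA6 differed by -1.73 in 0 mM and by -0.74 in 25 mM, and edgeR called 0 genes in both, beside 968 and 755 genes at an unadjusted p under 0.05. For siATF6 against siControl HSPA6 differed by -0.07 in 0 mM and by 0.12 in 25 mM, among 0.311% and 0.496% of genes called. With replicate 2 left out the siATF4 differences were -1.35 in 0 mM and -0.23 in 25 mM and those of siATF6 were -0.06 and -0.54. The siATF4 value in 0 mM then rests on replicate 1 alone for the siATF4 group.

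**Figure D4:**
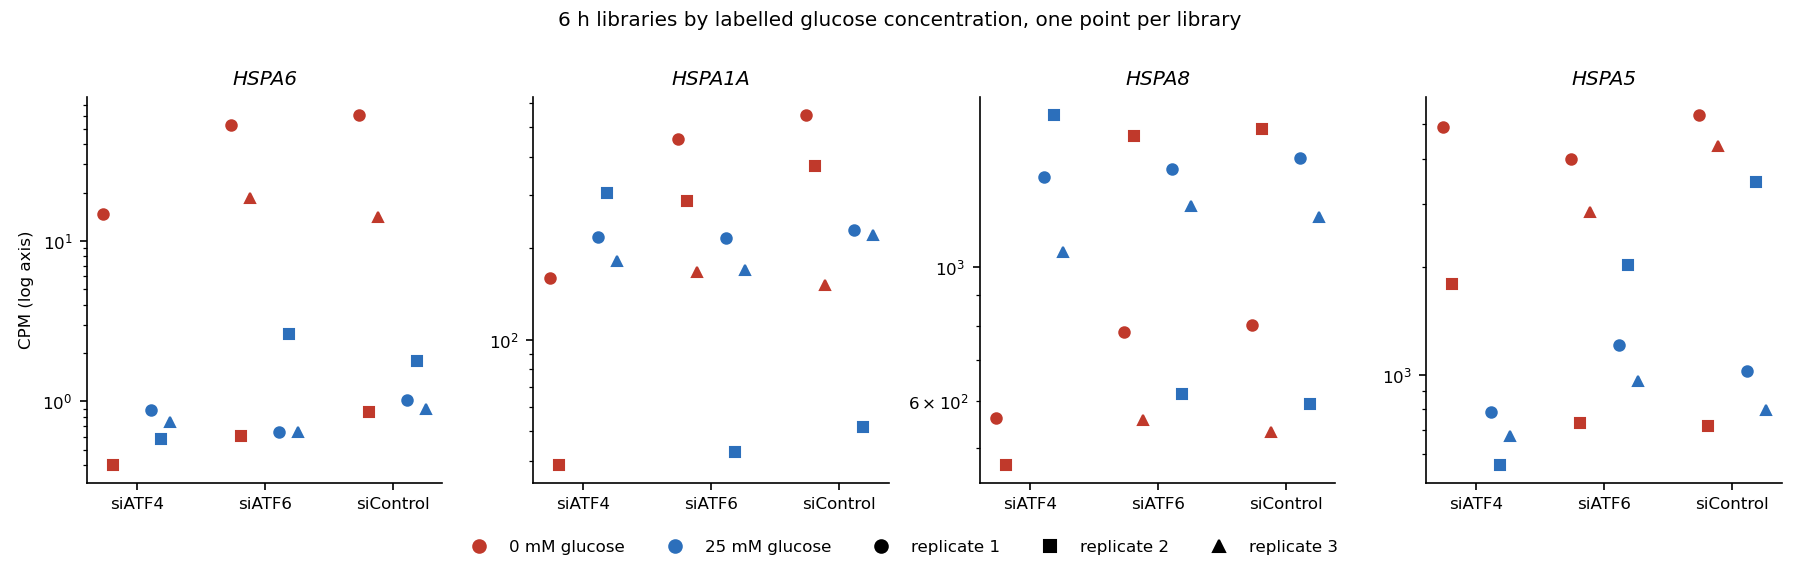
Levels of HSPA6, HSPA1A, HSPA8 and HSPA5 in the 6 h libraries, in CPM on a log axis, by siRNA and by labelled glucose, with marker shape giving the replicate number. In the siControl and siATF6 libraries labelled replicate 2, HSPA5 is higher under the 25 mM label, at 3434 and 2028 CPM, than under the 0 mM label, at 720 and 731 CPM.

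HSPA1A, HSPA1B, BAG3 and DNAJB1 followed HSPA6 closely among the deprived cultures. Over the 9 deprived libraries of 16 h, which share cell line, glucose and transfection but not siRNA, genes were ranked by the Pearson correlation of log2 CPM with HSPA6, as a description. Of 11011 genes with at least 5 CPM on average the first 5 were HSPA1B (r = 0.997, Spearman's rho = 0.983), HSPA1A (r = 0.997, rho = 0.983), EGR1 (r = 0.991, rho = 0.933), FOS (r = 0.991, rho = 0.983) and BAG3 (r = 0.986, rho = 0.967). Over the 6 libraries other than replicate 1, r was 0.997, 0.994, 0.981, 0.985 and 0.979 in the same order. EGR1 and FOS are immediate early genes, transcribed within minutes of many stimuli. DNAJB1 ranked at place 11 (r = 0.976), HSPH1 at place 28 (r = 0.963) and HSP90AA1 at place 31 (r = 0.961, rho = 0.967). HSPA8, a constitutive member, was at place 79 (r = 0.941, rho = 0.967) and HSF1 at place 9293 (r = -0.556). HSPB1 had an r of 0.49, and of -0.44 over the 6 libraries other than replicate 1. Over all 18 libraries of 16 h, which fall into a deprived and a fed cluster, no coefficient is given, and the 5 leading genes, TSPYL2, LARP6, NDRG1, MAP1LC3B and BEX4, include no member.

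The other chaperone families were read from lists of related genes, whose deprivation response with siControl at 16 h is given here beside a median of 0.01 over all genes, of which 14.6% rose and 14.5% fell. Relatives in the endoplasmic reticulum rose throughout, 9 of 9, with a median log2 fold change of 2.52. Among them HSPA5 rose by 3.88, HYOU1, an HSP110 of that compartment, by 3.68, HSP90B1, its HSP90, by 2.80 and DNAJB11, a J-domain partner of HSPA5, by 2.52. Of 9 IDs of the HSP70 and HSP110 family outside the members 1 rose and 5 fell, with a median of -0.57. HSPA13, a microsomal HSP70 relative, rose by 2.08 (adjusted p = 3.4e-06), and among those lower HSPA14, a partner of ribosomes, fell by 1.10, HSPA4, an HSP110, by 0.57 and HSPA12B, a distant relative, by 1.24.

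Of 12 HSP40 co-chaperones of the cytosol and nucleus 2 rose and 0 fell (median 0.00). They were DNAJA4 (2.24, adjusted p = 0.049) and DNAJB5 (0.83, adjusted p = 0.018). Of 14 genes for HSP90 and its co-chaperones 0 rose and 4 fell (median -0.25): FKBP5, an immunophilin that binds HSP90, by 1.33, AHSA1, which stimulates its ATPase, by 0.66, UNC45A by 0.33 and PPID by 0.29. Of the 8 subunits of the TRiC/CCT chaperonin, which folds actin and tubulin, 0 rose and 5 fell (median -0.34), CCT2 by 0.50 at most. In the list of HSP70 cofactors and related genes SQSTM1, an autophagy receptor, rose by 1.31, and 0 genes fell.

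Of 7 mitochondrial relatives 2 rose, HSPA9, the mitochondrial HSP70, by 0.97 and its exchange factor GRPEL2 by 0.66, and 1 fell, HSPE1, by 0.70. Of 9 small heat shock proteins 4 passed the filter on low counts, of which HSPB11, a part of the intraflagellar transport machinery in spite of its symbol, fell by 0.53. Of 5 heat shock factors and their binding proteins other than HSF1, 4 passed the filter and 0 were called. With siATF4 the endoplasmic reticulum list had 8 of 9 genes higher in 0 mM than in 25 mM and with siATF6 9 of 9, and the HSP70 and HSP110 list had 5 and 6 genes lower.

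Between siRNAs in 0 mM at 16 h, 0 of the 9 endoplasmic reticulum genes were called with siATF4 against siControl, beside 12.4% of all genes, and 3 were lower with siATF6, beside 4.02% of all genes called: HSP90B1 by 0.90, DNAJB11 by 0.76 and HSPA5 by 0.48. Of the list of 11 HSP70 cofactors and related genes 3 were higher with siATF4. They are named here after their values were seen: HSPBP1, an exchange factor, by 0.84, STUB1, a ubiquitin ligase that binds HSP70, by 0.70, and BAG1, another exchange factor. A fit of only the libraries compared called 0 of 16669 genes. Without replicate 3 of deprived siATF4, which stood apart, 912 of 18405 genes were called, and whether these 3 were among them was not examined. DNAJA4, an HSP40 that rose on deprivation with siControl, differed by -1.52 with siATF4 (adjusted p = 0.20).

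**Figure D5:**
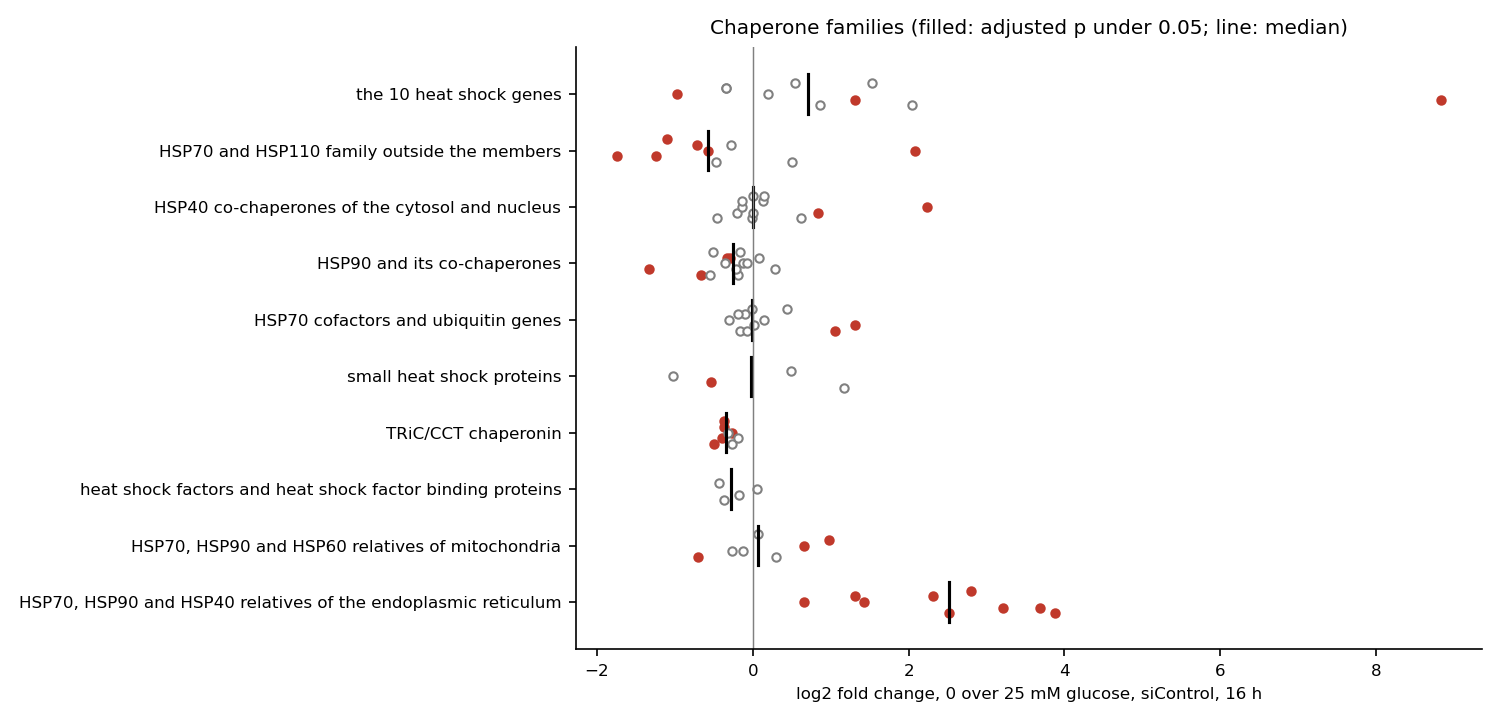
Log2 fold change for 0 mM over 25 mM glucose in siControl cultures at 16 h for each tested gene of the chaperone lists, 1 dot per gene, with a line at each list's median. The endoplasmic reticulum list lies wholly above 0 with a median of 2.52, the TRiC/CCT list lies below 0 with a median of -0.34, and the 10 cytosolic genes spread from -0.97 for HSPA8 to 8.83 for HSPA6.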

How the data were processed

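Poly(A) RNA of 36 A549 cultures was sequenced as paired reads of 150 bases without strand information, per the labels. Per the submitters' processing notes the reads passed through fastp, STAR and RSEM on GRCh38, with no versions named; which annotation release was used is not stated there. The authors deposited 1 table of RSEM expected counts per gene, with gene and effective lengths. Reads of a gene and of an overlapping or antisense neighbour cannot be told apart without strand.

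Expected counts were rounded to whole numbers for the fits. CPM divides the expected count, not rounded, by the library's total in units of 1e6, and TPM uses the deposited effective lengths. Genes were kept by filterByExpr with a minimum count of 10 and a minimum total of 15, scaled by TMM and tested with edgeR 4.0.16 (limma 3.58.1, R 4.3.3; robust quasi-likelihood test, 2-sided, Benjamini-Hochberg over all genes, threshold 0.05). The 16 h fit held 18 libraries, the 6 h fit 17 and the fit across times 35. A standard error is the log2 fold change over the square root of its F value. All tests number 17 comparisons. The step was tested on simulated data first.

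The members and gene lists were chosen with earlier results of these data known. All 10 members are named. Of each of 9 lists up to 4 genes with the smallest adjusted p for deprivation with siControl at 16 h are named, plus any that passed against most of its list, and the 5 genes most like HSPA6 by Pearson's r of log2(CPM + 1). Labels call the replicates biological replicates but do not say whether they were cultured on separate days, so p-values measure only the spread between these libraries. Deviations from the group means correlated within every replicate number for siATF4 against siControl (0.70, 0.29 and 0.20) and siATF6 against siControl (0.81, 0.75 and 0.49) in 0 mM at 16 h, for the same comparisons in 25 mM (0.78, 0.58 and 0.62; 0.76, 0.57 and 0.66), for deprivation with siATF6 (0.53, 0.51 and 0.33) and with siControl (0.71, 0.55 and 0.61), so the numbers were taken to pair those cultures; with siATF4 they did not (0.79, -0.64 and -0.19 for deprivation). Correlations between different numbers were not computed. Deviations cancel out within a group, so a shift of replicate 1 shared by the groups can also make the other replicates correlate. The pairing is thus an assumption. Alternatives were DESeq2 1.42.0, its size factors, no filter, other sets of libraries, summed near-copies, the replicate block and leaving out libraries. Those without the replicate 1 libraries of 16 h, those without replicate 2 of 6 h and those of only the libraries compared with the block were chosen after seeing the data. Sequences came from RefSeq windows (GRCh38.p14) and were searched with Python 3.11.15. Results for some genes of the lists are not reported here.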

Additional observations from a re-analysis of the deposited data

Results flagged for a closer look

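HSPA6 stood at 142 CPM in siATF4 in 0 mM at 6 h replicate 3, the library of 2.87 M counts (M, 1e6) that entered no test. That is 407 expected counts, with an exact 95% interval of 128 to 156 CPM that covers counting error only, against 0.579 to 0.886 CPM in the 3 siATF4 libraries of 25 mM at 6 h. It is listed because it is a signal in unused data above the level in the control libraries. In the same library HSPA1A, HSPH1 and HSF1 were listed at 0 counts, which allows up to 1.29 CPM by the exact interval, while the siATF4 libraries of 25 mM held 181 to 304 CPM of HSPA1A, and its profile correlated with no other library.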

How the results depend on the processing

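Of 285 recomputed counts of members past the threshold, 260 stayed within 1.5 times the reported count. In most comparisons the reported count was 0, and a count that stayed at 0 is among these 260. A kept count can also hide a change of genes. Without the replicate 1 libraries the siControl deprivation count at 16 h stayed the same while HSP90AA1 replaced DNAJB1. Of 857 recomputed single-gene values, 742 kept their direction and side of the threshold, 42 passed it newly, 29 lost it and 44 changed sign, all of these in genes that had not passed. With all 36 libraries every call of HSPA8 (adjusted p = 0.47 to 0.73) and HSF1 was lost, and with only the libraries compared DNAJB1 (adjusted p = 0.095) and HSF1 with siATF4 lost theirs, while HSF1 was newly called for deprivation with siATF6 (adjusted p = 0.0025) and siControl (0.045). DNAJB1 with siControl also missed the threshold with DESeq2 (adjusted p = 0.054), its size factors (0.052) and no filter (0.16). The cause of these changes was not tested.

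With all 36 libraries in 1 fit, which includes the failed library, 1 member passed for deprivation at 16 h with each siRNA. It was among 325 genes called with siATF4, 831 with siATF6 and 531 with siControl, of 18733 tested. For siATF4 against siControl in 0 mM at 16 h 0 members passed, among 14 genes. For deprivation with siATF4 at 6 h 1 passed, among 2212 genes. The fit of 29 libraries left out replicate 2 of 6 h and the failed library. There 2 members passed for siATF4 against siControl in 0 mM at 16 h, among 3493 of 19644 genes. For deprivation at 6 h 1 passed with siControl and 1 with siATF6, among 554 and 313 genes. The same counts passed without replicate 2 in the 6 h fit, among 736 and 343 of 18799 genes. Without the replicate 1 libraries 5 passed for deprivation with siATF4 at 16 h, among 3569 of 17795 genes. For siATF4 against siControl in 0 mM 6 passed, among 1408 of those genes. With only the libraries compared 0 passed for siATF4 against siControl in 0 mM, among 0 of 16669 genes. For siATF6 against siControl in 25 mM 2 passed, among 942 of 16741 genes. With only those libraries and the replicate block 4 passed for deprivation with siATF6, among 8565 of 16773 genes. For siATF4 against siControl in 0 mM 0 passed, among 0 of 16669 genes. For siATF6 against siControl 1 passed in 0 mM, among 5179 of 16767 genes, and 5 in 25 mM, among 4409 of 16741. At 6 h 3 passed for deprivation with siATF4, among 1018 of 17198 genes. For siATF4 against siControl in 0 mM at 6 h 1 passed, among 13 of 17052 genes. In the 16 h fit the replicate block gave 4 for siATF4 against siControl in 0 mM, among 4076 of 18013 genes. Beside those calls and that of HSP90AA1 with siATF6, the block changed no call of a comparison taken as paired at 16 h. Leaving out 1 library gave 0 to 7 for siATF4 against siControl in 0 mM, the 7 among 3439 of 18391 genes.

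Leaving out the replicate 1 libraries changed the sign for deprivation with siControl in HSPH1 (-0.21), with siATF4 in HSPA1A (-0.94), HSPA1B (-0.70), DNAJB1 (-0.39) and HSPB1 (-0.11), and with siATF6 in HSPA1A (-0.051), HSPH1 (-0.41) and BAG3 (-0.21). The block changed it with siATF4 for HSPA1A (-0.18, and -0.15 with only the libraries compared) and DNAJB1 (-0.079 and -0.031). HSPA6 between siATF6 and siControl in 0 mM at 16 h was 0.011 with DESeq2 and with its size factors, 0.0033 with all 36 libraries, 0.0084 with 29 and 0.0030 with only those compared and the block. At 6 h it was 0.047 in 0 mM with the block and 0.035 with only the libraries compared and the block, and in 25 mM -0.53 with 29 libraries, -0.54 without replicate 2 and -0.076 with only those compared and the block.

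Leaving out 1 library at a time changed the sign of deprivation at 16 h for HSPH1 with siControl (-0.18 to 0.86), for HSPA1A (-0.79 to 0.66), HSPA1B (-0.58 to 0.95), DNAJB1 (-0.33 to 0.25) and HSPB1 (-0.27 to 0.33) with siATF4, and for HSPH1 (-0.39 to 0.45) and BAG3 (-0.20 to 0.79) with siATF6. HSPA8 between siATF4 and siControl in 0 mM ranged from -0.49 to 0.11. HSPA6 ranged from -1.50 to 1.38 between siATF6 and siControl in 0 mM at 16 h and from -2.13 to 0.76 for the difference in response with siATF6. At 6 h HSPA6 ranged from -0.83 to 4.38 for deprivation with siATF4 and from -5.99 to 0.056 for siATF4 against siControl in 0 mM. In those fits, leaving out a deprived siATF4 library kept only 1 in its group. For siATF6 against siControl at 6 h HSPA6 ranged from -1.43 to 1.72 in 0 mM and from -0.92 to 0.50 in 25 mM. Depth limits HSPA6 in 25 mM, at 0.910 to 1.86 CPM at 16 h and down to 0.579 CPM at 6 h.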
